A study of Caenorhabditis elegans with 4 samples.

Results

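The superoxide dismutase genes *sod-1* to *sod-5*, the catalase genes *ctl-1*, *ctl-2* and *ctl-3* and the peroxiredoxin genes *prdx-2* and *prdx-3* of *C. elegans* were followed on arrays of remofuscin-treated worms. They were chosen by name, as the probes whose identifier belongs to 1 of these antioxidant enzymes, and they are 10 of the 19814 genes named on the arrays and 10 of the 14734 genes tested. The study asked what remofuscin changes in gene expression. Wild-type (N2) worms were moved at day 1 of adulthood to plates with remofuscin (named soraprazan in the labels) and kept there on *E. coli* OP50 for 14 days. The remofuscin group was kept on 200 µM and the NC (negative control) group on 0 µM. Both groups carry the N2 background with no transgene or mutation. For the array worms, the sources used here name no agent that blocks reproduction. Total RNA of whole, pooled worms was hybridized to 1-colour Agilent arrays, with 2 arrays in each group. The sample titles carry 2 prefixes, each shared by 1 array of remofuscin-treated worms and 1 NC array. The titles do not say what the prefixes stand for, and they were read here as experiment 1 and experiment 2. Every p rests on these arrays alone. The limma fit behind the p values draws the spread of each probe towards a spread common to all tested probes.

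Superoxide is formed as a by-product of respiration. Superoxide dismutases convert it to hydrogen peroxide and oxygen, with copper and zinc or with manganese at the active site. Catalases and peroxiredoxins remove the hydrogen peroxide, catalases without a reducing partner and peroxiredoxins by oxidizing and then regenerating a cysteine, usually through thioredoxin. In *C. elegans*, *sod-3* is a classic target of the FOXO factor DAF-16 and is widely used as a reporter of lowered insulin-like signalling.

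Remofuscin-treated worms did not differ detectably from NC worms in any of these 10 genes. The limits of the study are a p under 0.05 and a change of 2-fold or more in either direction. They were applied here to the unadjusted limma p, which the study did not use. Of the 10 genes, 0 met them, against 2.23% of all tested genes called higher and 0.896% called lower. At an unadjusted p under 0.05 alone, 0 of the 22 probes of these genes passed, against 3.56% of tested genes. At a Benjamini-Hochberg adjusted limma p under 0.05 the count was also 0, against 0.550% of tested genes, and the adjusted p was 1.0 for each of the 22 probes. The log2 fold changes ran between -0.37 (*sod-3*) and 0.22 (*sod-1*) with standard errors of 0.38 to 0.45 over the probes. The median was 0.06, beside 0.00 over all tested genes, and 6 genes were on the higher side and 4 on the lower side. The 95% confidence intervals of the 22 probes reached up to a fold change of 2.34 and down to one of 0.38. They come from a fit without a block on experiment, so they also carry the differences between the experiments. The remofuscin and NC arrays overlapped in every one of the 10 genes, while 20.3% of tested genes had groups that did not overlap.

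Values are given as scaled signals. The intensity of a probe was divided by the 75th percentile of its array and multiplied by 692.5, the geometric mean of that percentile over the 4 arrays. Per-array values are given for experiment 1 and then experiment 2. Probes differ in how strongly they bind, so the signal of a gene is set only against its own signal on other arrays. Where a gene had more than 1 probe, the brightest is given first. All 22 probes were well above background on all 4 arrays, and none was saturated.

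The 5 superoxide dismutases comprise the copper/zinc enzymes SOD-1 (the main cytosolic form), SOD-4 (extracellular or membrane-bound) and SOD-5 (a minor cytosolic form), and the mitochondrial manganese enzymes SOD-2 and SOD-3. *sod-1* gave scaled signals of 59462.5 and 48124 on the remofuscin arrays, against 57215 and 36938 on the NC arrays. The groups overlapped, and the NC array of experiment 2 was the lowest of the 4. The limma log2 fold change was 0.22 ± 0.41 (SE, n = 2 arrays per group), with a 95% confidence interval of -0.71 to 1.15. *sod-4* gave 7512 and 6286 in remofuscin-treated worms and 8171 and 4530 in NC worms, a log2 fold change of 0.18 ± 0.43 (SE, interval -0.81 to 1.16). *sod-5* gave 386.5 and 340 in remofuscin-treated worms and 449 and 224 in NC worms, a log2 fold change of 0.19 ± 0.45 (SE, interval -0.83 to 1.22). For *sod-4* and *sod-5* both remofuscin values lay between the NC values, and the NC arrays differed more between experiments than the remofuscin arrays did.

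*sod-2*, the main mitochondrial manganese form, gave 7603 and 5700 in remofuscin-treated worms and 8290 and 4763 in NC worms, a log2 fold change of 0.07 ± 0.43 (SE, interval -0.92 to 1.05). Its remofuscin values also lay inside the NC range. *sod-3*, the inducible form, gave 122 and 65.7 in remofuscin-treated worms and 134 and 99.5 in NC worms. It was lower with remofuscin in both experiments, but the remofuscin array of experiment 1 was above the NC array of experiment 2. The log2 fold change of -0.37 ± 0.44 (SE, interval -1.38 to 0.64) was the largest in size among the 10 genes. With normexp background correction it was -0.15, and *ctl-1* (-0.29), *prdx-3* (0.24), *ctl-3* (-0.23) and *sod-1* (0.21) were then larger in size.

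The catalases are CTL-1 (cytosolic), CTL-2 (the peroxisomal form, which accounts for most catalase activity in the worm) and CTL-3. *ctl-1* gave 2870 and 3530 in remofuscin-treated worms and 3204 and 4807 in NC worms, a log2 fold change of -0.30 ± 0.40 (SE, interval -1.22 to 0.62). *ctl-2* gave 3301 and 4122 in remofuscin-treated worms and 3342 and 4509 in NC worms, a log2 fold change of -0.07 ± 0.39 (SE, interval -0.97 to 0.82). *ctl-3* gave 3253 and 4309 in remofuscin-treated worms and 3381 and 5516 in NC worms, a log2 fold change of -0.21 ± 0.42 (SE, interval -1.17 to 0.76). Each of the 3 was lowest on the remofuscin array of experiment 1 and highest on the NC array of experiment 2, and the groups overlapped.

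The peroxiredoxins are PRDX-2, an abundant cytosolic enzyme that also takes part in peroxide signalling, and PRDX-3, the mitochondrial one. *prdx-2* gave 56152 and 69529 in remofuscin-treated worms and 50799 and 71477 in NC worms, a log2 fold change of 0.05 ± 0.39 (SE, interval -0.85 to 0.96). *prdx-3* gave 21130 and 20724 in remofuscin-treated worms and 22884 and 14399 in NC worms, a log2 fold change of 0.21 ± 0.40 (SE, interval -0.72 to 1.13). The remofuscin values of both genes lay inside their NC range, and for *prdx-3* the 2 remofuscin arrays were close together while the NC arrays were not.

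**Figure D1:**
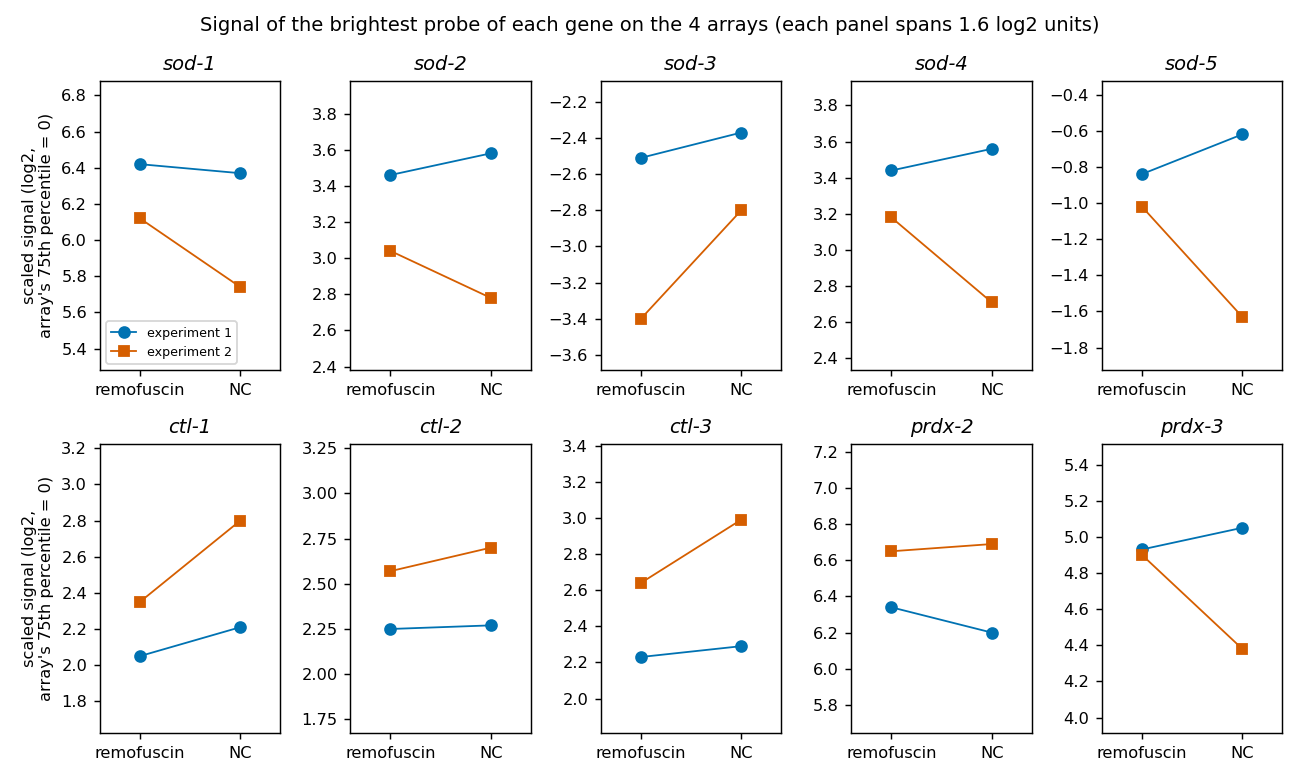
Log2 signal of the brightest probe of each gene, relative to the 75th percentile of its array, in remofuscin-treated worms (left) and NC worms (right), with 1 point per array and a line joining the arrays of 1 experiment. The groups overlap in all 10 panels, and the lines of *sod-2*, *sod-4*, *sod-5*, *prdx-2* and *prdx-3* slope in opposite directions in the experiments.

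Within experiment 1 the remofuscin array differed little from the NC array in these genes, and within experiment 2 it differed more. The median log2 difference, remofuscin minus NC, was -0.12 over the 10 genes in experiment 1 and 0.11 in experiment 2, beside -0.03 and 0.03 over all tested genes. Its size reached 0.34 over the 22 probes in experiment 1 and 0.60 in experiment 2, and it was larger in experiment 2 for 9 of the 10 genes. All tested genes also spread more widely in experiment 2, with 5th and 95th percentiles of -0.65 and 0.59 in experiment 1 and of -0.69 and 0.93 in experiment 2. With 1 array of each group in an experiment, these differences have no test.

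The direction held across experiments for 5 genes. *sod-3* (-0.14 in experiment 1, -0.60 in experiment 2), *ctl-1* (-0.16, -0.45), *ctl-2* (-0.02, -0.13) and *ctl-3* (-0.06, -0.36) were lower with remofuscin both times, and 31.1% of tested genes were lower in both experiments. *sod-1* was higher both times by its brightest probe (0.06, 0.38), as were 29.0% of tested genes, although its other 5 probes were lower in experiment 1. The other 5 genes had opposite signs by their brightest probe. *sod-2* (-0.12, 0.26), *sod-4* (-0.12, 0.47), *sod-5* (-0.22, 0.60) and *prdx-3* (-0.12, 0.53) were lower with remofuscin in experiment 1 and higher in experiment 2, and *prdx-2* did the reverse (0.14, -0.04).

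**Figure D2:**
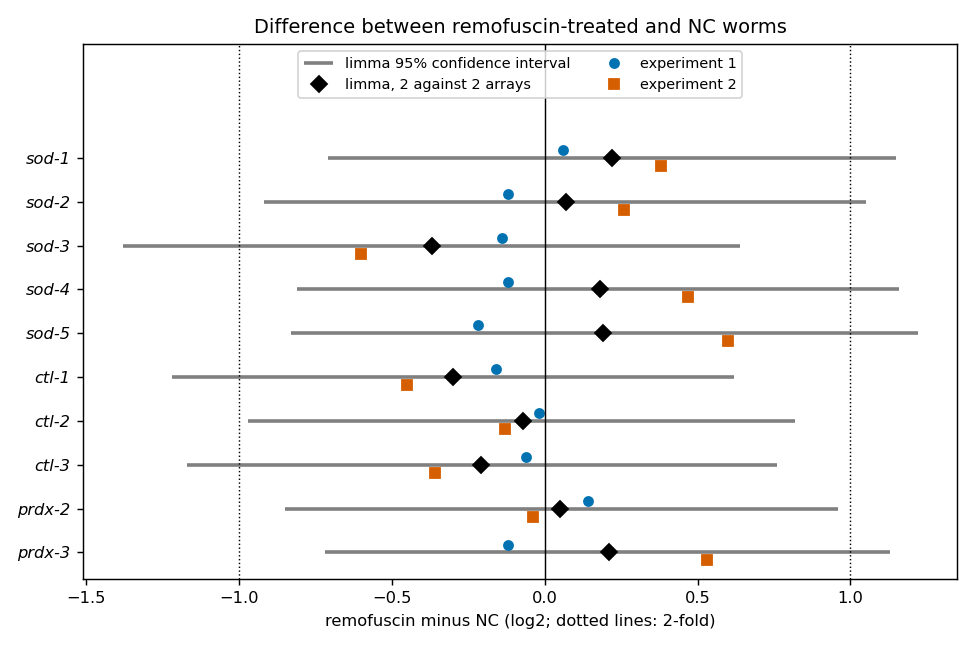
Log2 difference of remofuscin-treated minus NC worms for the brightest probe of each gene, as the limma value over 2 against 2 arrays (diamond) with its 95% confidence interval (bar) and as the difference within experiment 1 (circle) and experiment 2 (square). Every interval crosses 0, and the squares lie farther from 0 than the circles except for *prdx-2*.

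Probes of the same gene did not always have the same sign. Signs differed in experiment 1 for *sod-1* and *prdx-3*, and in the limma log2 fold change for *sod-1* and *sod-4*. Of the 6 *sod-1* probes, 5 carry an identifier of transcript form a (C15F1.7a) and 1 that of form b (C15F1.7b.1). In experiment 1, 5 of the 6 were lower with remofuscin and the brightest was higher, between -0.34 (form b) and 0.06. In experiment 2 all 6 were higher, by 0.23 to 0.47. The form b probe gave 11466 and 9801 in remofuscin-treated worms and 14469 and 8381 in NC worms, and its limma log2 fold change was -0.05 ± 0.42 (SE, interval -1.02 to 0.91). The limma log2 fold change of the 3 *sod-4* probes ran from -0.08 to 0.18, and that of the 3 *prdx-3* probes from 0.21 to 0.26. In experiment 1 the brightest *prdx-3* probe was lower with remofuscin (-0.12) and the other 2 were slightly higher (0.05 and 0.02), while in experiment 2 all 3 were higher. The remaining genes have 1 probe (*sod-2*, *sod-3*, *sod-5* and *prdx-2*) or 2 (each catalase).

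Between the experiments the superoxide dismutase and catalase probes differed in opposite directions, and the peroxiredoxins *prdx-2* and *prdx-3* split. Of the 12 superoxide dismutase probes, 6 belong to *sod-1*, and the profiles of the catalase probes were not set apart by gene. The probes are therefore not all separate observations. On the NC arrays, experiment 2 minus experiment 1 was negative for all 12 superoxide dismutase probes, by -1.0 (*sod-5*) to -0.43 (*sod-3*) on the log2 scale. On the remofuscin arrays it was negative for all 12 as well, by -0.89 (*sod-3*) to -0.18 (*sod-5*). The 3 *prdx-3* probes were also lower in experiment 2, by -0.33 to -0.03 with remofuscin and -0.80 to -0.67 in NC worms. All 6 catalase probes were higher in experiment 2 instead, by 0.11 to 0.41 with remofuscin and by 0.32 to 0.71 in NC worms. *prdx-2* went with the catalases, at 0.31 with remofuscin and 0.49 in NC worms.

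So 6 genes were lower in experiment 2 in both groups, as were 54.7% of tested genes, and 4 were higher in both groups, as were 31.4%. Both directions were thus common among all tested genes, and a difference between the enzyme families was not tested. The median over all tested genes was -0.18 on the remofuscin arrays and -0.26 on the NC arrays, with 5th and 95th percentiles of -0.79 and 0.81 with remofuscin and of -1.24 and 1.07 in NC worms. All members lay inside these percentiles except *sod-3* on the remofuscin arrays. Cell type markers also differed between the experiments. The median of experiment 2 minus experiment 1 was above 0 in both groups for markers of oocytes and embryos (0.42 with remofuscin, 0.79 in NC worms), body wall muscle (1.08, 1.37), intestine (0.25, 0.63) and moulting larvae (0.29, 0.69). It was below 0 in both groups for markers of hypodermis (-0.09, -0.73), neurons (-0.44, -0.11) and sperm (-0.13, -0.65). The summed signal of the 8 oocyte and embryo markers was 144859 and 181123 on the remofuscin arrays, against 148739 and 210926 on the NC arrays. Their part in the values of the antioxidant enzymes was not tested. In whole worms, fewer cells of a type and less RNA per cell cannot be told apart.

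**Figure D3:**
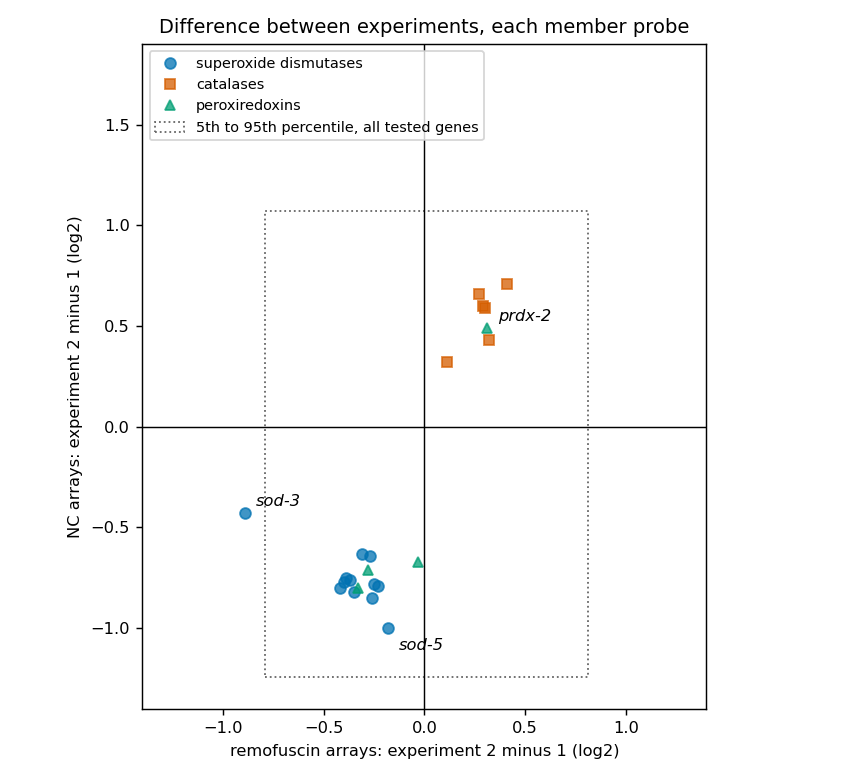
Log2 difference of experiment 2 minus experiment 1 for each of the 22 probes, on the remofuscin arrays (horizontal axis) and on the NC arrays (vertical axis), with the 5th and 95th percentiles of all tested genes as a dotted box. Superoxide dismutase and *prdx-3* probes lie at lower left, catalase and *prdx-2* probes at upper right, and *sod-3* alone lies outside the box.

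The 3 catalase genes stand side by side on chromosome II, in the order *ctl-2*, *ctl-1*, *ctl-3*, and their sequences are closely similar, so a probe designed for 1 can bind transcripts of the others. Each gene had 2 probes, and 0 of their identifiers named more than 1 gene (Y54G11A.5.1 and Y54G11A.5.2 for *ctl-2*, Y54G11A.6 for *ctl-1* and Y54G11A.13 for *ctl-3*). The probe letters were not used here, so binding to a neighbour could not be measured. The profiles over the 4 arrays were compared as the root mean square difference of log2 signals, each probe centred on its own mean. Probes of the same gene (3 pairs) differed by 0.03 to 0.09 and probes of different catalase genes (12 pairs) by 0.02 to 0.18. The ranges overlap, so on these 4 arrays the probes of 1 catalase gene were not set apart from those of the others. Closeness of profile was not particular to the cluster, so it cannot tell whether probes are shared. *act-5*, an intestine marker on chromosome III, ran a like course. It gave 2624 and 3380.5 in remofuscin-treated worms and 2981 and 4600 in NC worms. Of the 7 intestine markers, *act-5* was the 1 on the lower side with remofuscin, and 6 were on the higher side.

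*ctl-1* and *ctl-3* were nearest each other, and both *ctl-2* probes stood less high on the NC array of experiment 2. The genes next to the cluster had other profiles. Y54G11A.7, which overlaps *ctl-2* in the name table, differed from the brightest *ctl-1* probe by 0.26 and gave 2244 and 2506.5 in remofuscin-treated worms and 2483 and 2417 in NC worms. Y54G11A.14, on the other side, differed by 0.64 and gave 150 and 159 in remofuscin-treated worms and 146 and 83.4 in NC worms. Y54G11A.4, beyond Y54G11A.7 on the *ctl-2* side, passed the background limit on 0 of the 4 arrays.

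**Figure D4:**
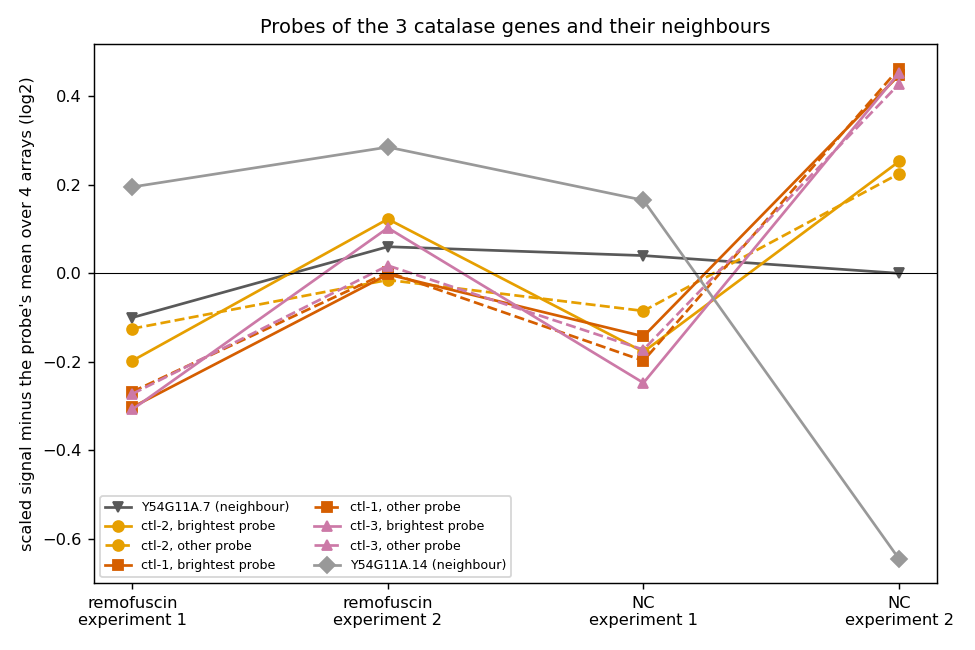
Log2 scaled signal of each probe of *ctl-1*, *ctl-2* and *ctl-3* and of 2 neighbouring genes on the 4 arrays, centred on the mean of the probe (solid lines, brightest probe or neighbour; dashed lines, the other probe). The catalase probes follow 1 course with a peak on the NC array of experiment 2, and Y54G11A.7 and Y54G11A.14 do not follow it.

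The genes whose profile over the 4 arrays was most like that of *sod-3*, the gene with the largest log2 fold change in size without normexp correction, were *C49A9.2*, *W02A2.8*, *ZK1055.6*, *asm-2* (an acid sphingomyelinase) and *ilys-1* (an invertebrate-type lysozyme). Their root mean square difference from *sod-3* was 0.036 to 0.060 on the log2 scale, out of 14733 genes compared. *C49A9.2*, the nearest, gave 76.4 and 39.7 in remofuscin-treated worms and 80.1 and 58.3 in NC worms. It shared with *sod-3* a low value on the remofuscin array of experiment 2, and 4 arrays give few points on which to compare profiles.

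Genes that work with these enzymes were read as 6 lists, with 80 tested genes in all. Of these 80, 3 met the limits of the study and all 3 were higher with remofuscin. Over all tested genes, 2.23% were called higher and 0.896% lower. At an adjusted limma p under 0.05 the count in the lists was 0, against 0.550% of all tested genes. A fit that blocks on experiment gave the same 3 genes adjusted limma p values of 1.6e-06 (*dod-17*), 2.13e-05 (*gpx-7*) and 0.00208 (*idhg-2*). In that fit 5.62% of all tested genes had one under 0.05, against 0 of the 10 antioxidant enzyme genes. The block fit gave every probe a common standard deviation of 0.27 with 1 residual degree of freedom. Its p values therefore do not measure the spread of each gene. In the thioredoxin and glutathione systems, which regenerate peroxiredoxins and reduce peroxides, 1 of 25 tested genes was called, and the median log2 fold change was 0.12. That gene was *gpx-7*, a glutathione peroxidase homologue, with 188 and 137 in remofuscin-treated worms and 103 and 37.7 in NC worms (log2 fold change 1.36, limma adjusted p = 1.0). Both of its remofuscin values were above both NC values, and no member gene showed this.

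The list of other genes known to follow *daf-16* joins genes that DAF-16 raises and genes that it lowers. Its median of 0.06 therefore has no single direction of action. Of the 9 tested genes, 5 were on the higher side and 4 on the lower side, and 1 was called. It was *dod-17*, a gene lowered by DAF-16 activity, with 707 and 413 in remofuscin-treated worms and 251 and 145 in NC worms (log2 fold change 1.5, limma adjusted p = 0.707). In the mitochondrial matrix enzymes, which share their compartment with SOD-2, SOD-3 and PRDX-3, 1 of 13 was called and the median was 0.04. It was *idhg-2*, an isocitrate dehydrogenase subunit, with 273 and 196 in remofuscin-treated worms and 139 and 85.8 in NC worms (log2 fold change 1.08, limma adjusted p = 1.0).

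In the other 3 lists 0 genes met the limits in either direction. The 16 regulators of antioxidant genes include *daf-16*, *skn-1* and *hsf-1*, and also genes that act against some of these, such as *daf-2* and *wdr-23*. The list therefore has no single direction of action. Its median was -0.23, with 15 on the lower side and 1 on the higher side, while 50.1% of all tested genes were on the higher side. Within experiment 1 the median was -0.03, and within experiment 2 it was -0.43. The oocyte and embryo markers lay the same way, with 8 of 8 on the lower side and medians of -0.02 in experiment 1 and -0.28 in experiment 2. Their part in the values of the regulators was not tested. *skn-1*, the Nrf-like factor of the oxidative stress response, gave 1467 and 2630 in remofuscin-treated worms and 1684 and 3964 in NC worms, a log2 fold change of -0.40 (interval -1.59 to 0.80). *sek-1*, a kinase of the p38 pathway, gave 240 and 294 in remofuscin-treated worms and 247 and 447 in NC worms, a log2 fold change of -0.32 (interval -1.31 to 0.66).

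The genes that make superoxide and hydrogen peroxide and the haem peroxidases (8 tested) had a median of -0.22. Their largest differences were in the dual oxidases *bli-3* (38.9 and 45.3 in remofuscin-treated worms, 44.3 and 82.8 in NC worms, log2 fold change -0.53, interval -1.52 to 0.47) and *duox-2* (-0.42, interval -1.36 to 0.52). The peroxisome biogenesis genes, which build the organelle that holds CTL-2, had a median of 0.05 over 9 tested genes. In that list *prx-3* had the largest log2 fold change, 0.55 (interval -0.39 to 1.48), and *prx-5*, the receptor for peroxisomal import, came next at 0.20 (interval -0.7 to 1.1).

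**Figure D5:**
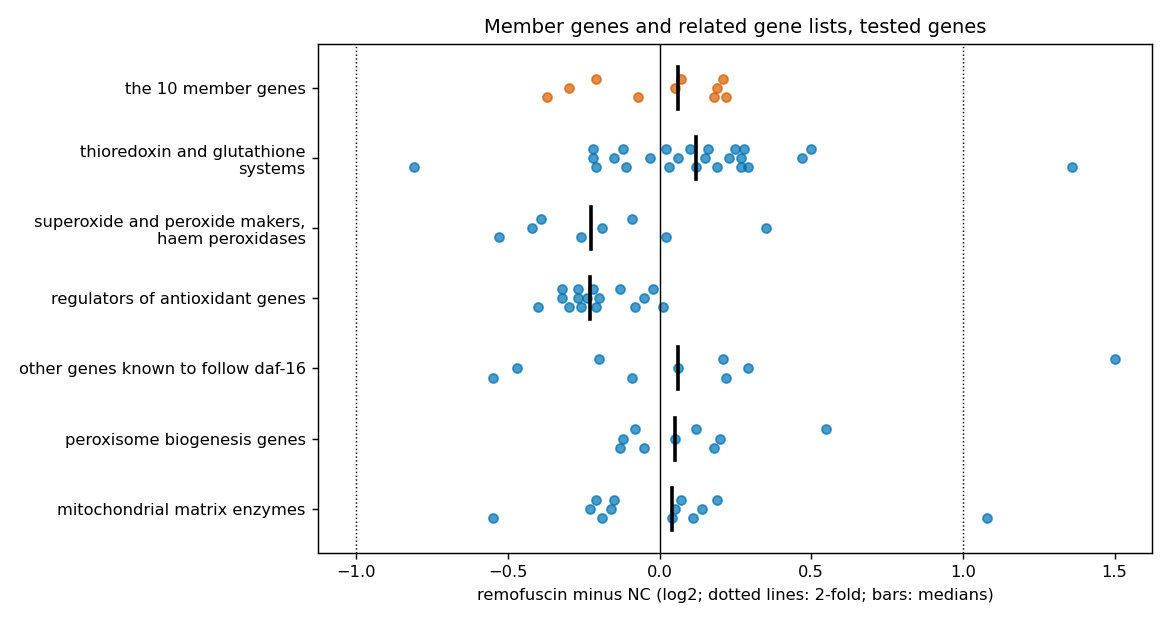
Log2 fold change of remofuscin-treated over NC worms for the 10 antioxidant enzyme genes (top row) and for the tested genes of the 6 related lists, with 1 point per gene, a bar at each median and dotted lines at 2-fold. The member genes lie between -0.37 and 0.22, and the 3 points beyond the right dotted line are *gpx-7*, *dod-17* and *idhg-2*.

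The 4 arrays lay on 1 slide, and 63.3% to 66.6% of their spots were well above background. Markers of intestine (7 of 7 tested), body wall muscle (6 of 6), neurons (7 of 7), oocytes and embryos (8 of 8) and sperm (6 of 6) were detected, and 0 of them met the limits of the study. The 4 tested hypodermis markers (of 6) were *rol-6*, *col-19*, *dpy-7* and *col-10*, all of them cuticle collagen genes. All 4 were called higher with remofuscin, and *rol-6* and *col-19* also had adjusted limma p values of 0.00954 and 0.0359. The 2 not tested were *bli-1* and *wrt-2*. The summed signal of all 6 was 8133 and 7656 in remofuscin-treated worms and 1549 and 1209 in NC worms, and *col-19* made up most of it, with 7672 and 7233 in remofuscin-treated worms and 1432 and 1151 in NC worms. The moulting markers, 8 of 8 tested, had 0 called genes and a median of -0.02. The part of this difference in cuticle collagen genes in the values of the antioxidant enzyme genes was not tested.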

How the data were processed

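Scanner output was deposited by the authors for all 4 arrays as intensity values, which Feature Extraction (version 11.5.1.1 in the file headers) had corrected for background within an array, without scaling between arrays. A value table that the authors deposited holds log2 values within 0.01 of the log2 scanner intensity for 99.94% to 99.97% of the 43603 probes of an array, so it is not scaled either.

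Control spots were left out here, as were spots marked as outliers (39 probes had one, 0 of them of the member genes). Spots of a probe were averaged, and each array's 75th percentile of log2 intensity was subtracted. The 29057 probes that passed the scanner software's background limit on 2 or more arrays entered the limma fit (3.58.1 in R 4.3.3) of remofuscin minus NC, without a block. Tests are two-sided, and the Benjamini-Hochberg adjustment covers all tested probes. Its prior standard deviation was 0.42 with 6.21 degrees of freedom. Names came from the sequence name or accession of a probe, looked up in a RefSeq gene table of WBcel235 that named 34320 probes (78.7%). The array was designed on an older build, so coordinates are not given, and only names, chromosomes and gene order were read from the table. The fit was run on simulated arrays drawn independently, with spreads from its own prior and no difference between experiments. That run checks only the working of the fit and not whether its model holds for these arrays. Python 3.11.15, pandas 2.3.3, numpy 2.4.6 and matplotlib 3.10.9 were used for tables and plots.

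The member genes, the lists and the tests were chosen with earlier results of these data known. The genes named are the members with every probe, the called genes of each list or otherwise the 2 with the largest log2 fold change in size, the 5 genes nearest to the member with the largest one, and the genes next to the catalases. In the marker lists only called genes are named, apart from *act-5*, which is set beside the catalases.

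The title prefixes, read here as experiments, put 1 remofuscin array and 1 NC array in each, and so the experiment numbers pair the samples. The deviations of the arrays from their group means correlated between the groups over 29057 probes (Pearson's r 0.736, Spearman's rho 0.763). As alternatives, arrays were scaled by the median or by quantiles, the background was corrected by normexp with an offset of 50 on median spot intensities, the deposited log2 values were used, the methods' t-test was run, dim probes were filtered otherwise, all probes of a gene were averaged, the experiment was entered as a block, and single arrays were omitted.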

Additional observations from a re-analysis of the deposited data

Results flagged for a closer look

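In 5 of the 10 genes the difference between remofuscin-treated and NC worms had opposite signs in the experiments. Opposite signs were also common among all tested genes, of which 31.1% were lower in both experiments and 29.0% higher in both. Experiment 2 minus experiment 1 of that log2 difference was 0.38 for *sod-2*, 0.59 for *sod-4*, 0.82 for *sod-5* and 0.65 for *prdx-3*. It was -0.18 for *prdx-2*. None of these was tested, because each experiment holds 1 array of each group. These are values of the brightest probe, and the other 2 *prdx-3* probes were higher with remofuscin in both experiments.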

How the results depend on the processing

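Under the 9 alternative settings on all 4 arrays and with each array left out, the count of member genes called stayed at 0. The lowest unadjusted p of a member was 0.172 on all 4 arrays and 0.147 with 1 array left out. With the experiment as a replicate block the count was 0 as well, and limma then gave every probe a common standard deviation of 0.27 with 1 residual degree of freedom. Of 90 log2 fold changes on all 4 arrays 1 changed sign, that of *prdx-2*, which was -0.04 with normexp background correction, and the cause was not tested. With 1 array left out, which takes the spread of a single remaining array from the other group, 12 of 40 values changed sign. They ran from -0.10 to 0.53 for *sod-1*, -0.33 to 0.47 for *sod-2*, -0.81 to 0.08 for *sod-3*, -0.25 to 0.60 for *sod-4*, -0.31 to 0.70 for *sod-5*, -0.29 to 0.14 for *ctl-2*, -0.56 to 0.15 for *ctl-3*, -0.19 to 0.30 for *prdx-2* and -0.13 to 0.54 for *prdx-3*. *ctl-1* stayed below 0 (-0.59 to -0.01). The count of list genes called was 3 with median scaling, quantile normalization and the block, and with the block the same 3 genes had an adjusted p under 0.05, against 0 without it. The log2 fold change of *sod-3* was -0.15 with normexp background correction. The scalings moved the median of all tested probes by less than 0.1 on the log2 scale.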
